A study of Homo sapiens with 15 samples.

Results

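TFEB, TFE3, MITF, FLCN, FNIP1, FNIP2, RRAGA, RRAGC, RRAGD and MTOR are 10 genes that link the lysosome to the control of growth: 3 transcription factors of the MiT-TFE family, the folliculin complex, 3 Rag GTPases and the mTOR kinase. They were found by gene name in every library, as 10 of the 60107 genes listed, and 8 of them passed the filter on low read numbers that left 10495 genes for testing. TFEB and MITF did not pass it.

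The RNA came from MIA PaCa-2, an established human pancreatic carcinoma cell line, in 5 groups of 3 libraries. Cells received vehicle, Lys05, BAQ12, BAQ13 or BAQ12O for 24 h, each agent at 5 µM. Lys05 is a dimeric chloroquine-type inhibitor of lysosomes and autophagy, whereas BAQ12 and BAQ13 join a bisaminoquinoline head to a hydrophobic tail, differ from each other by 1 methylene unit and assemble into nanoparticles (NPs). BAQ12O is a code name that the sample labels give without a structure, and the series' design text writes it 12O. A single cell line was used, and nothing in the labels says that replicates came from separate cultures, so p-values measure the spread between these libraries, which may be technical.

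Between 1586566 and 2500551 reads fell on genes per library, with a median of 2230594, so that 3 reads corresponded to a normalised count of 2.49 to 4.14. The keratins KRT8, KRT18 and KRT19 were present in all libraries (normalised counts from 175.4 to 969.7), while the other epithelial markers on the list, KRT7, EPCAM and CDH1, reached at most 5 reads in any library. The mesenchymal marker VIM stood between 9198 and 10781. Of 10 markers of other cell types, PECAM1, PRSS1, CPA1 and GCG had no read in any library, PTPRC, CD14, VWF, COL1A1 and INS reached at most 8 reads, and COL3A1 lay between 20.7 and 44.8. Replicate 3 of BAQ12 stood apart: its mean correlation with the other libraries of its group was 0.934, against 0.956 to 0.982 for the other 14 libraries, and results that involve the spread are therefore also given without it.

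As background, TFEB, TFE3 and MITF are basic helix-loop-helix factors that bind CACGTG-type E-boxes and M-boxes in the promoters of lysosomal and autophagy genes, the CLEAR network. On well-fed lysosomes, Rag heterodimers of RagA or RagB with RagC or RagD bring mTORC1 to the membrane, where its kinase, MTOR, phosphorylates TFEB and TFE3 and keeps them in the cytoplasm. Folliculin (FLCN), in a complex with FNIP1 or FNIP2, acts as the GTPase-activating protein of RagC and RagD and so takes part in that phosphorylation.

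The genes called higher than vehicle were in the folliculin and Rag groups, which held all of the 8 tested except TFE3 and MTOR. FNIP2 and RRAGA, of the same groups, were not called. RRAGD had the largest difference of the 8 with BAQ13, and FLCN with BAQ12 and BAQ12O. BAQ13 NPs raised RRAGD, FLCN, FNIP1 and RRAGC (4 of the 8 genes tested, when 3.58% of all genes tested were called higher). BAQ12O raised RRAGD, FLCN and FNIP1 (3 of 8, against 0.934% of all genes), and BAQ12 raised RRAGD and FLCN (2 of 8, against 0.572%). For Lys05, limma called 0 of 8 (0.238% of all genes were called in either direction), as did edgeR and DESeq2, although 2 genes, FLCN and FNIP2, had an unadjusted p under 0.05. None of the 8 was called lower than vehicle by any agent. The median log2 difference over the 8 genes was 0.11 for Lys05, 0.29 for BAQ12, 0.45 for BAQ13 and 0.35 for BAQ12O, when the median over all genes tested was within 0.01 of 0. A call here is an adjusted p under 0.05 in limma, fitted to log2(normalised count + 1) over all genes and adjusted by Benjamini-Hochberg, and all log2 differences below are on that scale, which understates changes of genes with low counts. The 4 comparisons share the same 3 vehicle libraries. In bulk RNA, more transcript per cell and more cells with the transcript cannot be told apart.

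**Figure D1:**
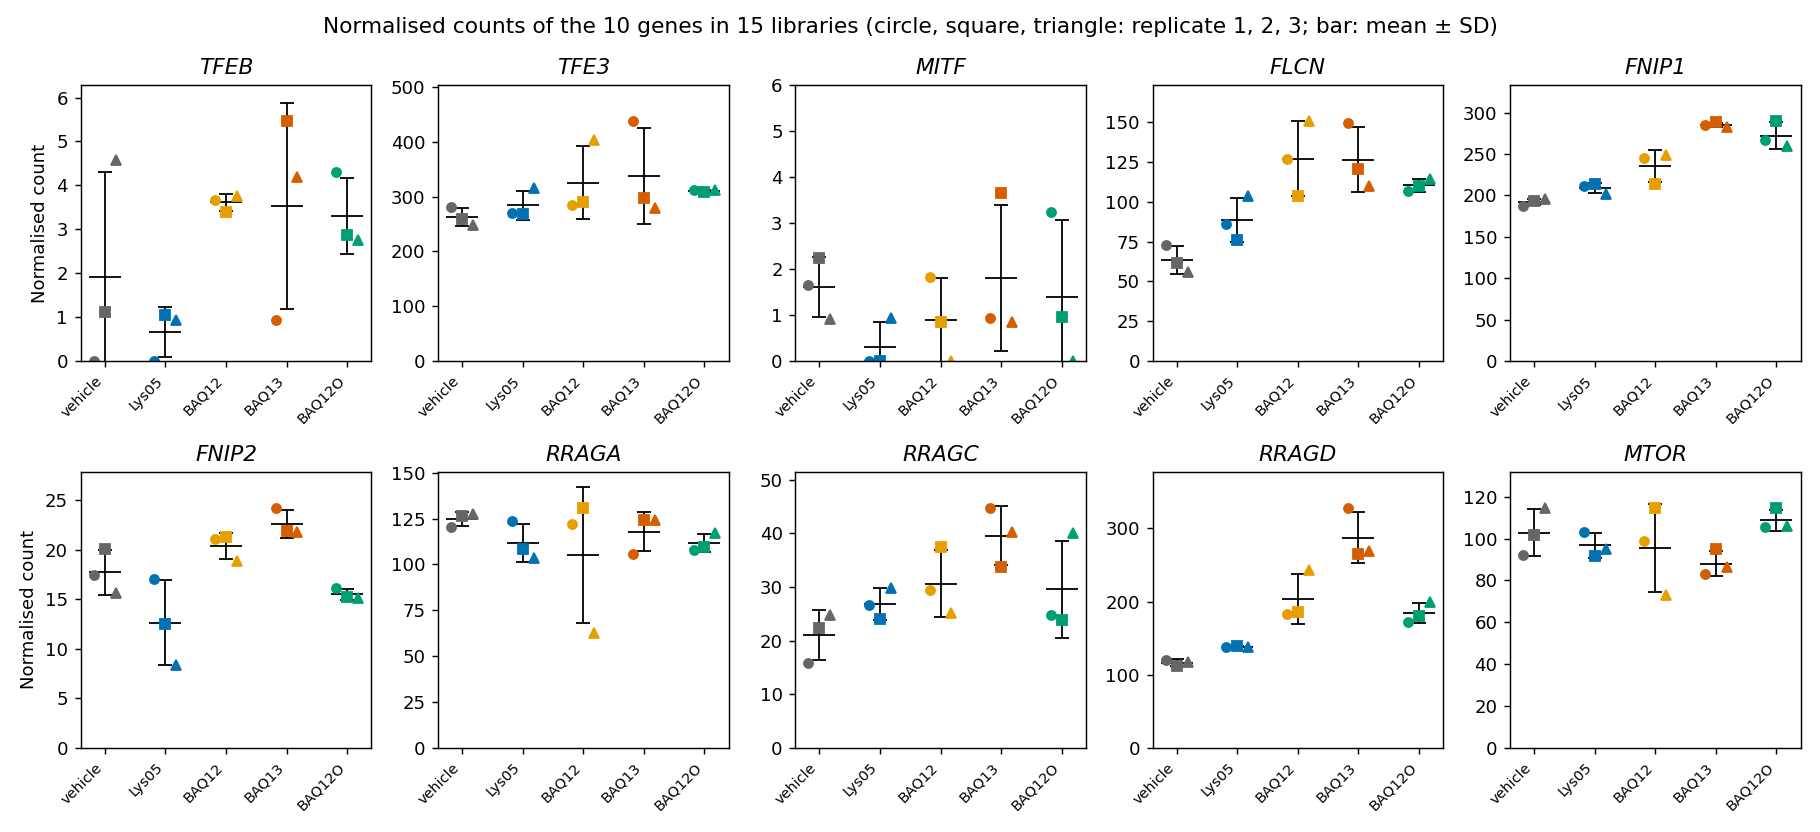
Normalised count (linear axis, from 0) of each of the 10 genes in each of the 15 libraries, by group; points are libraries and bars the group mean with its SD. All 12 treated libraries lie above all 3 vehicle libraries for RRAGD, FLCN and FNIP1, while TFEB and MITF stay at or below 6 reads.

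TFE3 was the transcription factor of the 3 that passed the filter on low reads. Its normalised counts were 281.5, 259.1 and 248.8 in vehicle and 270.5, 267.6 and 315.5 after Lys05. They were 284.3, 290.7 and 403.2 after BAQ12, 438.6, 297.1 and 279.1 after BAQ13, and 311.5, 308.9 and 311.6 after BAQ12O. BAQ12 and BAQ12O libraries all lay above vehicle, as for 7.75% and 12.5% of all genes tested. The BAQ13 group held both the highest value of the series and 1 value inside the vehicle range. The order of the group means was vehicle (263.1 ± 16.7, SD, n = 3), Lys05 (284.5 ± 26.9), BAQ12O (310.7 ± 1.53), BAQ12 (326.1 ± 66.9) and BAQ13 (338.3 ± 87.3), and no neighbours in that order differed by the test. The differences from vehicle of 0.29 for BAQ12 (adjusted p = 0.45) and 0.24 for BAQ12O (adjusted p = 0.54) were not called. Without BAQ12 replicate 3, the highest of its group, that for BAQ12 was 0.13 (adjusted p = 0.85). The difference for BAQ13 was 0.33 (95% CI 0.01 to 0.65, adjusted p = 0.23), also not called. Without BAQ12 replicate 3 that adjusted p was 0.0489, when 7.12% of all genes were called higher with BAQ13.

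TFEB, the best known activator of lysosomal genes, and MITF, the factor that sets the melanocyte programme, were close to the limit of detection. TFEB had 6 reads over the 3 vehicle libraries, 2 after Lys05, 11 after BAQ12, 12 after BAQ13 and 9 after BAQ12O, with at most 6 reads in a library. MITF had 5, 1, 3, 6 and 4 reads in the same order, with at most 4 in a library. Reads of this number are too few to show a difference, and no fold change or test is given. TFEC, the remaining member of the family, had no read in any library.

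FLCN (ENSG00000154803, GRCh38, chr17:17212212-17237188, minus strand) rose with BAQ12, BAQ13 and BAQ12O. Its normalised counts were 73.1, 61.4 and 56.0 in vehicle, 86.2, 76.0 and 103.6 after Lys05, and 126.6, 103.7 and 150.7 after BAQ12. They were 149.3, 120.3 and 109.8 after BAQ13 and 106.7, 109.6 and 114.4 after BAQ12O. Every treated library was above every vehicle library, Lys05 included (as for 1.66% of all genes tested). The highest Lys05 library, replicate 3, lay just under the lowest BAQ12 library. The means were 63.5 ± 8.72 in vehicle, 88.6 ± 13.9 with Lys05, 110.3 ± 3.89 with BAQ12O, 126.5 ± 20.5 with BAQ13 and 127.0 ± 23.5 with BAQ12 (n = 3 each). BAQ12 raised FLCN by 0.98 on the log2 scale (SE 0.16, adjusted p = 0.0028), a ratio of means of 2.00, and by 0.85 without BAQ12 replicate 3 (adjusted p = 0.0017). When only the 6 libraries compared were fitted, that call was lost (adjusted p = 0.11). BAQ13 raised it by 0.98 (95% CI 0.64 to 1.32, adjusted p = 0.00083).

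The rise of FLCN with BAQ12O was 0.79 (95% CI 0.46 to 1.13, adjusted p = 0.015). That call was lost when single libraries were left out: the adjusted p was 0.0745 without vehicle replicate 2, 0.0979 without vehicle replicate 3, 0.0634 without BAQ12O replicate 2 and 0.0803 without BAQ12O replicate 3. With Lys05 the difference was 0.47 (unadjusted p = 0.0090), which was not called. No neighbours in the order of means differed by the test. The gene MPRIP lies across the FLCN locus on the opposite strand without sharing an exon. AC055811.2, on the strand of FLCN, shares exon sequence with it and had 0 reads over all libraries. AC008695.1 does so with FNIP1 and AL139260.2 with RRAGC, also with 0 reads.

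FNIP1 (ENSG00000217128, chr5:131641714-131797063, minus strand) rose with BAQ13 and BAQ12O. Its normalised counts were 187.6, 193.2 and 195.5 in vehicle, 210.8, 213.5 and 201.6 after Lys05, and 244.9, 213.4 and 248.7 after BAQ12. They were 284.6, 288.0 and 282.4 after BAQ13 and 267.3, 289.8 and 259.2 after BAQ12O. All treated libraries exceeded all vehicle libraries (as for 1.66% of all genes). The BAQ13 libraries also exceeded all Lys05 libraries (as for 12.3% of all genes) and all BAQ12 libraries (6.02%). The same held for the BAQ12O libraries (9.16% and 6.17%). BAQ13 raised FNIP1 by 0.57 (95% CI 0.38 to 0.75, adjusted p = 0.00045), from 192.1 ± 4.05 to 285.0 ± 2.80, and BAQ12O raised it by 0.50 (95% CI 0.31 to 0.68, adjusted p = 0.0051), to 272.1 ± 15.9. With BAQ12 the mean was 235.6 ± 19.4 (difference 0.29, adjusted p = 0.17) and with Lys05 208.6 ± 6.22 (difference 0.12, adjusted p = 0.999), neither of which was called. No neighbours in the order vehicle, Lys05, BAQ12, BAQ12O, BAQ13 differed by the test.

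FNIP2, the other folliculin partner, was expressed at a level of 8.40 to 24.3 in all libraries, counted by only 9 to 26 reads a library. It read 17.4, 20.1 and 15.6 in vehicle, 17.0, 12.5 and 8.40 after Lys05, 21.1, 21.3 and 18.8 after BAQ12, 24.3, 21.9 and 21.8 after BAQ13, and 16.2, 15.3 and 15.2 after BAQ12O. The BAQ13 libraries lay above vehicle (as for 14.5% of all genes tested) and the other groups overlapped it. The means ran from 12.6 ± 4.32 with Lys05 to 22.6 ± 1.40 with BAQ13, with BAQ12O, vehicle and BAQ12 between them and no neighbours told apart. None of the 4 differences from vehicle was called, from -0.50 for Lys05 (unadjusted p = 0.0498) to 0.34 for BAQ13 (adjusted p = 0.47).

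RRAGD (ENSG00000025039, chr6:89364636-89412270, minus strand), which encodes RagD, showed the largest increase of the 8 genes with BAQ13. Its normalised counts were 120.4, 111.7 and 117.5 in vehicle, 138.4, 138.5 and 137.2 after Lys05, and 182.5, 185.3 and 243.7 after BAQ12. They were 328.5, 265.2 and 269.0 after BAQ13 and 172.5, 180.2 and 199.9 after BAQ12O. Vehicle, Lys05 and BAQ13 formed separate ranges, and BAQ12 and BAQ12O overlapped each other between Lys05 and BAQ13. Of all genes tested, 8.24% had every Lys05 library above vehicle and 12.3% every BAQ13 library above Lys05. The means were 116.5 ± 4.44, 138.0 ± 0.721, 184.2 ± 14.1 for BAQ12O, 203.8 ± 34.5 for BAQ12 and 287.6 ± 35.5 for BAQ13.

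BAQ13 raised RRAGD by 1.29 (95% CI 1.04 to 1.54, SE 0.12, adjusted p = 1.4e-06), and this value stayed between 1.19 and 1.34 under all 26 alternatives. BAQ12 raised it by 0.79 (95% CI 0.54 to 1.04, adjusted p = 0.0013), and by 0.65 without replicate 3, the highest of its group (adjusted p = 0.00065), but the call was lost when only the 6 libraries compared were fitted (adjusted p = 0.11). BAQ12O raised it by 0.65 (95% CI 0.40 to 0.91, adjusted p = 0.0073), with an adjusted p of 0.0555 without BAQ12O replicate 3. With Lys05 the difference was 0.24 (95% CI -0.01 to 0.50, adjusted p = 0.99), although the 3 libraries lay above vehicle. No neighbours in the order of means differed by the test.

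RRAGC (ENSG00000116954, chr1:38838198-38859823, minus strand), the gene of RagC, was counted by 19 to 48 reads a library. It read 15.8, 22.3 and 24.8 in vehicle, 26.6, 24.0 and 29.9 after Lys05, and 29.3, 37.4 and 25.1 after BAQ12. It read 44.8, 33.7 and 40.2 after BAQ13 and 24.8, 23.8 and 40.0 after BAQ12O. The BAQ12 and BAQ13 libraries lay above vehicle (as for 7.75% and 14.5% of all genes tested), while the other groups overlapped it. BAQ13 raised RRAGC by 0.90 (95% CI 0.40 to 1.40, adjusted p = 0.029), from 21.0 ± 4.66 to 39.6 ± 5.56. This call was the least stable of those with BAQ13: the adjusted p was 0.138 without vehicle replicate 1, 0.0703 without vehicle replicate 2, 0.121 without BAQ13 replicate 1 and 0.0795 without BAQ13 replicate 3, and 0.0069 without BAQ12 replicate 3. In the order of means, Lys05 (26.8 ± 2.96), BAQ12O (29.5 ± 9.06) and BAQ12 (30.6 ± 6.24) lay between, and no neighbours differed by the test. The differences of 0.53 for BAQ12, 0.46 for BAQ12O and 0.36 for Lys05 were not called. Without BAQ12 replicate 3 that for BAQ12 was 0.66 (adjusted p = 0.34), also not called. With library weights it was 0.75 (adjusted p = 0.015). Those weights were 3.97 for BAQ12 replicate 2, the highest RRAGC value of its group, 0.755 for replicate 1 and 0.125 for replicate 3.

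RRAGA (ENSG00000155876, chr9:19049395-19050983, plus strand), the gene of RagA, did not pass the test in any comparison. It read 120.4, 126.2 and 127.6 in vehicle, 123.5, 108.3 and 103.6 after Lys05, 122.0, 130.9 and 62.8 after BAQ12, 105.4, 124.0 and 124.0 after BAQ13, and 107.8, 109.6 and 117.2 after BAQ12O. The BAQ12O libraries lay below vehicle (13.3% of all genes tested showed such a separation), and BAQ12 replicate 3 was the lowest of the series. Group means ran from 105.2 ± 37.0 with BAQ12 to 124.7 ± 3.82 in vehicle and were not told apart. The difference for BAQ12 was -0.31 with that library and 0.019 without it. RagB, which pairs with RagC and RagD as RagA does, is encoded by the paralogue RRAGB, which lay between 12.9 and 44.0 in the 15 libraries and differed from vehicle by -0.12 to 0.11.

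MTOR (ENSG00000198793, chr1:11106535-11262507, minus strand), the kinase of the complex, was not called in any comparison either. It read 92.2, 101.6 and 114.7 in vehicle, 103.3, 91.6 and 95.2 after Lys05, 99.0, 114.8 and 72.9 after BAQ12, 83.1, 94.8 and 86.3 after BAQ13, and 105.6, 114.4 and 106.2 after BAQ12O. All treated groups overlapped vehicle, and the means, from 88.1 ± 6.06 with BAQ13 to 108.7 ± 4.92 with BAQ12O, were not told apart. The differences from vehicle ran from -0.22 for BAQ13 (95% CI -0.53 to 0.09) to 0.08 for BAQ12O.

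**Figure D2:**
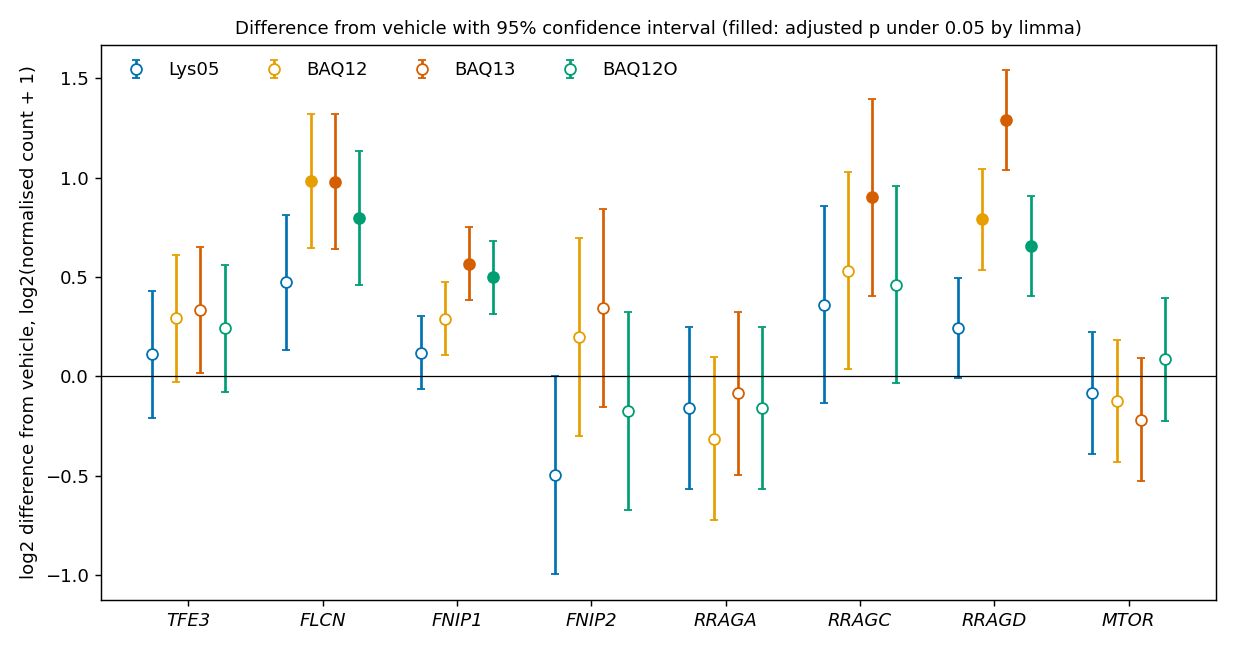
Log2 difference from vehicle, on log2(normalised count + 1), of the 8 genes tested, for each agent; points are limma estimates with 95% confidence intervals, filled where the adjusted p was under 0.05. RRAGD with BAQ13, at 1.29, is the highest filled point, and no filled point lies below 0.

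Counted by separation of the libraries, RRAGD, FLCN and FNIP1 stood above vehicle in all 12 treated libraries, as 1.66% of all genes tested did. For single agents, 3 of 8 genes had every Lys05 library above vehicle (8.24% of all genes), 5 every BAQ12 library (7.75%), 5 every BAQ13 library (14.5%) and 4 every BAQ12O library (12.5%).

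The agents were then compared with each other at the shared dose and time, in 6 pairs over 8 genes, with p-values adjusted over all genes within a pair. BAQ13 exceeded Lys05 in RRAGD by 1.05 (95% CI 0.79 to 1.30, adjusted p = 3.4e-05) and in FNIP1 by 0.45 (95% CI 0.26 to 0.63, adjusted p = 0.0069), which made 2 of 8 genes when 1.88% of all genes were called higher. FLCN was 0.51 higher with BAQ13 than with Lys05 (adjusted p = 0.12) and FNIP2 0.84 higher (adjusted p = 0.072), neither of which was called. Without BAQ12 replicate 3 these gave adjusted p-values of 0.022 and 0.041, when 4.16% of all genes were called higher. FNIP2 gave 0.0348 without Lys05 replicate 1. That fit dropped the highest Lys05 library (17.0), which by itself widens the difference, here to 1.07.

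BAQ12 and BAQ13, which differ by 1 methylene unit, were not told apart by limma in any of the 8 genes, as 0.562% of all genes were. The count was also 0 by edgeR and 1 by DESeq2, and 2 genes had an unadjusted p under 0.05. For RRAGD the value with BAQ13 was 0.50 higher than with BAQ12 (95% CI 0.25 to 0.75, adjusted p = 0.082), each BAQ13 library being above each BAQ12 library (as for 6.02% of all genes). Without BAQ12 replicate 3 that difference was 0.64 (adjusted p = 0.00086), with 1.69% of all genes called higher. That fit dropped the highest BAQ12 library (243.7) and kept the highest BAQ13 library (328.5, replicate 1), which by itself widens the difference. Over all genes tested, the deviations of these libraries from their group means correlated at 0.57. FLCN differed by -0.00155 (BAQ13 minus BAQ12), with a 95% CI of -0.34 to 0.34, so a difference of up to 0.34 in either direction remains possible. FNIP1 was 0.28 higher with BAQ13 (adjusted p = 0.27, and 0.067 without BAQ12 replicate 3).

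BAQ12O was lower than BAQ13 in RRAGD by 0.64 (95% CI of the difference, BAQ12O minus BAQ13, -0.89 to -0.38, adjusted p = 0.0086), 1 of 8 genes when 0.924% of all genes were called lower. The adjusted p was 0.0581 without BAQ13 replicate 1, 0.0622 without BAQ12O replicate 1 and 0.0523 without BAQ12O replicate 2. BAQ12O and BAQ12 were not told apart in any gene (0 by limma, edgeR and DESeq2, 1 at an unadjusted p under 0.05, 0.229% of all genes called), with an RRAGD difference of -0.14 (95% CI -0.39 to 0.12).

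Against Lys05, limma called 0 of 8 genes for BAQ12 (3 at an unadjusted p under 0.05, 0.162% of all genes called) and 0 for BAQ12O (2 at an unadjusted p under 0.05, 0.248% called), and edgeR and DESeq2 called 0 in each. The widest of these differences in RRAGD was 0.55 for BAQ12 (95% CI 0.29 to 0.80, adjusted p = 0.12). Without BAQ12 replicate 3, BAQ12O exceeded Lys05 in FNIP1 by 0.38 (adjusted p = 0.025, against 0.12 with all libraries) and in RRAGD by 0.41 (adjusted p = 0.043, against 0.30), with 0.554% of all genes called higher.

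**Figure D3:**
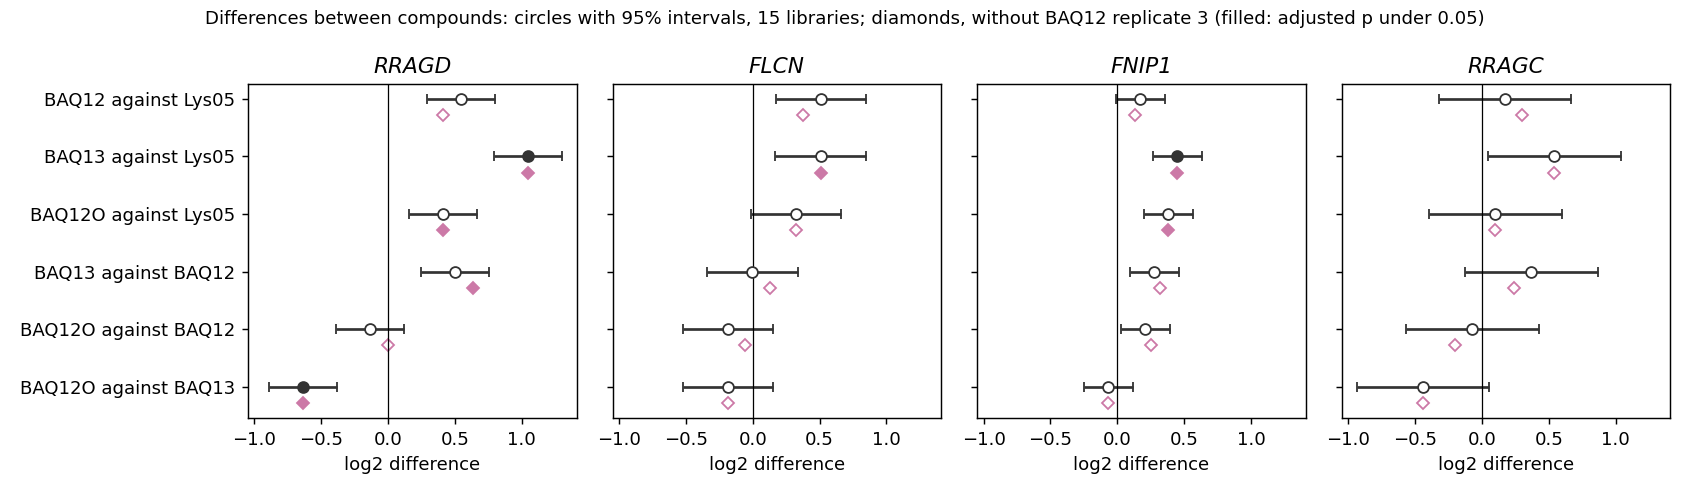
Log2 difference between agents (first minus second agent, on log2(normalised count + 1)) in the 6 pairs for RRAGD, FLCN, FNIP1 and RRAGC; circles are limma estimates from 15 libraries with 95% confidence intervals, diamonds the estimates without BAQ12 replicate 3, each filled where the adjusted p was under 0.05. The filled circles are RRAGD and FNIP1 for BAQ13 against Lys05 and RRAGD for BAQ12O against BAQ13, and 4 further diamonds are filled without that library.

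Promoters were searched for the letters that MiT-TFE factors bind, since FLCN, FNIP1, RRAGC and RRAGD rose together with BAQ13. Windows from 250 bases before to 50 after the RefSeq start (GRCh38.p14) were matched for 8 of the 10 genes, and RRAGA and RRAGD are not in the table. CACGTG, which reads the same on either strand, was found in 7.26% of all 35116 promoters, and at least 2 copies in 0.664%. The FNIP1 window held 2 copies and the RRAGC window 1. The M-box TCACATGA, or TCATGTGA on the other strand, occurs in 1.00% of promoters and was found once, at the second listed start of FNIP2. It does not contain CACGTG. The windows of TFEB, TFE3, MITF, FLCN and MTOR and the first of FNIP2 held neither. The longer form TCACGTGA, which contains CACGTG, occurs in 0.98% of all promoters and was found in no window of the 8 genes. The sequences around the matches are shown 5′ to 3′ on the strand of the gene, with the motif in capitals.
FNIP1, 175 bases before the start, chr5:131797160-131797219, minus strand: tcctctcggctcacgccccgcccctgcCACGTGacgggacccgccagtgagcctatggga
FNIP1, 94 bases before the start, chr5:131797079-131797138, minus strand: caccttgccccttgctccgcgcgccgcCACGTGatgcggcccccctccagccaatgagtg
RRAGC, 112 bases before the start, chr1:38859852-38859911, minus strand: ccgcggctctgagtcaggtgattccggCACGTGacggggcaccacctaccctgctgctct
FNIP2, 143 bases before its second start, chr4:158805669-158805730, plus strand: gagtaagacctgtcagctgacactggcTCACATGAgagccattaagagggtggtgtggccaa
These are matches of letters and no binding was measured. In the 26 promoters of the CLEAR list described below, CACGTG was found in 12 (46.2%) and TCACGTGA in 7 (26.9%). CLEAR genes are those that these factors bind at such E-boxes, so a high share there was given in advance. It tells nothing about the genes described here.

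The pathway around these genes was read from lists of its other complexes, 52 genes of which 45 were tested: RRAGB and TFEC, the other mTORC1 subunits, Ragulator with SLC38A9, GATOR1 with KICSTOR, GATOR2, the amino acid sensors, the TSC complex with RHEB, mTORC1 substrates, AMPK subunits, and lysosomal calcium and calcineurin genes. Limma called 0 of 45 higher with Lys05 and 0 with BAQ12, 2 with BAQ13 and 1 with BAQ12O, and none lower. The shares of all genes called higher were 0.572% with BAQ12, 3.58% with BAQ13 and 0.934% with BAQ12O, so the count of 2 of 45 with BAQ13 is near what all genes gave. The median differences over the 45 were -0.0052, -0.060, 0.046 and -0.069. TSC1, whose product restrains RHEB and thereby mTORC1, rose from 110.5 ± 4.78 to 166.1 ± 20.1 with BAQ13 (0.58, SE 0.11, adjusted p = 0.0028) and to 191.3 ± 6.35 with BAQ12O (0.79, adjusted p = 0.00078). LAMTOR4, a subunit of the Ragulator scaffold that anchors Rag GTPases to the lysosome, rose from 40.8 ± 11.6 to 75.0 ± 12.0 with BAQ13 (0.89, SE 0.25, adjusted p = 0.048). Without BAQ12 replicate 3 the counts higher were 6 with BAQ13 and 1 with BAQ12O. Those with BAQ13 were TSC1, LAMTOR4, LAMTOR1, LAMTOR5, MLST8 and SESN2. SEC13 and PRKAG2 were then called lower with BAQ12O. Of all genes, 7.12% were then called higher with BAQ13, and 2.66% higher and 2.28% lower with BAQ12O.

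The CLEAR list, 39 established targets of the MiT-TFE factors of which 34 were tested, had a median above 0 with each agent. That median difference from vehicle was 0.18 with Lys05, 0.20 with BAQ12, 0.37 with BAQ13 and 0.27 with BAQ12O, when all genes had a median within 0.01 of 0. Of the 34, 29, 26, 33 and 33 lay above vehicle, and the calls were 0 with Lys05, 2 higher with BAQ12, 9 higher and 1 lower with BAQ13, and 2 higher with BAQ12O. Over all genes tested, 0.238% were called with Lys05, 0.572% were called higher with BAQ12, 3.58% higher and 2.19% lower with BAQ13, and 0.934% higher with BAQ12O. Without BAQ12 replicate 3 the BAQ13 calls were 16 higher and 1 lower, when 7.12% of all genes were called higher, and the BAQ12O calls 6 higher, when 2.66% were.

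SQSTM1, the autophagy receptor p62, rose with BAQ12, BAQ12O and BAQ13, from 301.2 ± 16.5 in vehicle to 469.0 ± 95.5 with BAQ12 (0.62, adjusted p = 0.0066), 502.4 ± 36.4 with BAQ12O (0.73, adjusted p = 0.0016) and 696.7 ± 32.3 with BAQ13 (1.21, adjusted p = 1.3e-06). NEU1, the lysosomal sialidase, rose from 30.0 ± 7.17 to 94.4 ± 5.82 with BAQ13 (1.65, adjusted p = 2.1e-05) and to 58.3 ± 13.1 with BAQ12 (0.94, adjusted p = 0.019). WIPI1, which acts in autophagosome formation, rose from 24.8 ± 3.81 to 58.5 ± 4.13 with BAQ13 (1.21, adjusted p = 0.00045). TPP1, a lysosomal peptidase, rose from 117.9 ± 8.48 to 169.6 ± 6.21 with BAQ12O (0.52, adjusted p = 0.0093), and by 0.69 with BAQ13 (adjusted p = 0.00021). CTSB, the gene of cathepsin B, fell by 0.42 with BAQ13, from 277.0 ± 14.9 to 206.7 ± 7.60 (adjusted p = 0.011).

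**Figure D4:**
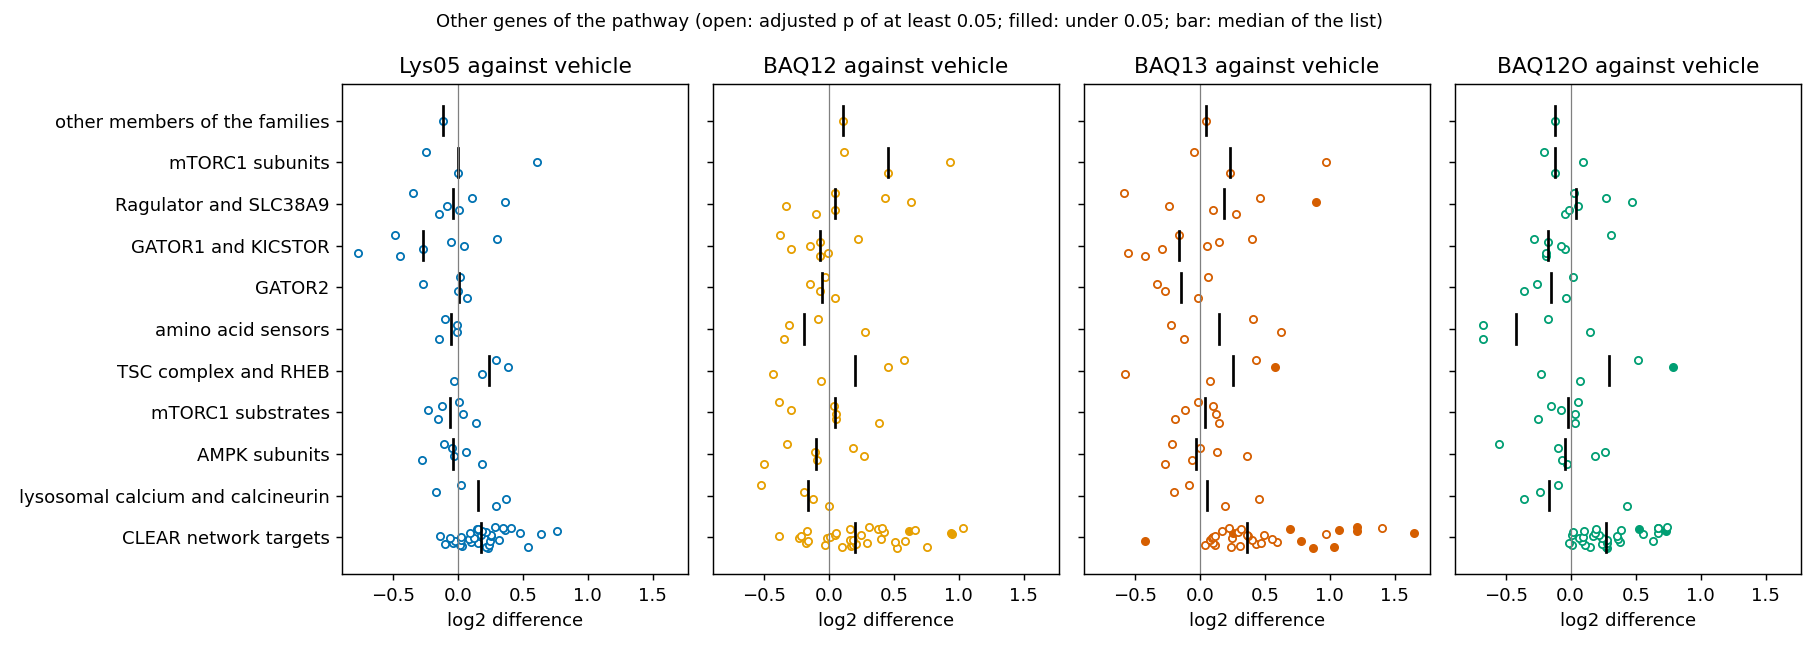
Log2 difference from vehicle, on log2(normalised count + 1), of every gene tested in the pathway lists and the CLEAR list, for each agent; each point is a gene, filled where limma called it, and the black bar marks the list's median. The CLEAR medians lie at 0.18 to 0.37, and TSC1 and LAMTOR4 are the filled points of the other lists.

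The genes whose log2 values over the 15 libraries followed each called gene most closely were listed as a description, because libraries of a group share their treatment. For RRAGD these were SPAG9, FASN and CHD5, each at Pearson's r = 0.98. For FNIP1 they were TPP1 (r = 0.97), PGPEP1 (0.93) and CTD-2228K2.7 (0.93), and for FLCN PPARGC1B (0.94), AMBRA1 (0.93) and CLIP2 (0.93). For RRAGC, with its low reads, they were HIVEP1 (0.89), CCNG1 (0.87) and PGD (0.84). Among the genes described here, RRAGD ran with FLCN and with FNIP1 (r = 0.86 each), and FLCN with TFE3 (0.80).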

How the data were processed

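For every library the authors deposited a table of normalised read counts, here treated as a signal, in which the reads of each gene were scaled by the library's size factor. The submitters' processing notes name STAR, HTSeq, DESeq2 and the build GRCh38 (hg38), without versions or roles. The methods give a stranded paired-end kit and the labels a 3′-end mRNA kit, so levels were not compared between genes, and with the strand of counting unsettled, reads of overlapping genes cannot be told apart. All values were whole multiples of the worth of 1 read (100% in each library, tolerance 0.01), from which whole reads were recovered. The floor of 3 reads covers counting error only.

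Groups were taken from the labels. Genes were kept by filterByExpr of edgeR 4.0.16 on recovered reads (minimum count 10, minimum total 15), and limma 3.58.1 with a variance trend was fitted to log2(signal + 1) over all 15 libraries without covariates, in R 4.3.3, with Benjamini-Hochberg adjustment within each of 10 comparisons (4 with vehicle and 6 between agents). Scripts were tested on simulated data. Coordinates are from GENCODE (GRCh38) and promoters from RefSeq (GRCh38.p14). The genes, lists and tests were chosen with earlier results of these data known. The 10 genes are all named. From the lists, the text names up to 3 called genes with the largest rise and 3 with the largest fall per comparison with vehicle, and for each called gene the 3 most correlated genes. LAMTOR1, LAMTOR5, MLST8, SESN2, SEC13 and PRKAG2 were named after their values were seen. Alternatives were other pseudocounts (0.1 and 5), no filter, at least 10 reads in every library, other normalisation, edgeR and DESeq2 1.42.0 on recovered reads, only the 6 libraries compared, library weights, a replicate block, adjustment over all comparisons together, and leaving out each library.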

Additional observations from a re-analysis of the deposited data

How the results depend on the processing

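Of 12 called differences in 26 alternatives (312 values), 0 reversed and 16 lost their call; the libraries behind most of these are named in the report. The other losses were FLCN and RRAGD for BAQ12 when only the 6 libraries compared were fitted (0 genes called), and RRAGC for BAQ13 without a filter (adjusted p = 0.0527) and when adjusted over all 10 comparisons together (0.0873). That joint adjustment called 1 gene for BAQ12 against Lys05 and 1 for BAQ12O against Lys05. Library weights raised RRAGC for BAQ12 against vehicle past the threshold, and called 1 for BAQ12 and 2 for BAQ12O against Lys05, 4 for BAQ13 against Lys05, 2 for BAQ13 against BAQ12 and 1 for BAQ12O against BAQ12. The weights ran from 0.125 for BAQ12 replicate 3 to 3.97 for BAQ12 replicate 2. Fitting only the 6 libraries called 2 for BAQ12O against Lys05, and DESeq2 1 for BAQ13 against BAQ12. Leaving out each library gave 1 to 3 calls for BAQ12O and 3 to 5 for BAQ13 against vehicle, 2 to 4 for BAQ13 and 0 to 2 for BAQ12O against Lys05, 0 to 1 for BAQ13 against BAQ12 and 0 to 1 for BAQ12O against BAQ13. The cause was not tested. Depth limits TFEB, MITF, FNIP2 and RRAGC.

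Of the 1758 alternative values of the 68 uncalled differences, 40 reversed, in 17 differences. FNIP2 has no value under the minimum of 10 reads in every library, which it did not pass. With library weights the log2 differences became, for BAQ12 against vehicle, 0.025 in RRAGA and 0.10 in MTOR; for BAQ12 against Lys05, 0.19 and 0.20; for BAQ13 against BAQ12, 0.16 in FLCN, -0.057 in RRAGA and -0.0055 in RRAGC; for BAQ12O against BAQ12, 0.087 in TFE3, 0.020 in FLCN, -0.20 in RRAGA and -0.019 in MTOR; and for BAQ12O against BAQ13, 0.024 in TFE3. MTOR for BAQ12 against Lys05 became 0.0070 with edgeR and 0.0038 with DESeq2, which also gave 0.00044 in RRAGA for BAQ12O against Lys05 and 0.0020 in FLCN for BAQ13 against BAQ12. Leaving out each library gave ranges that crossed 0. For BAQ12 against vehicle they were -0.50 to 0.019 in RRAGA and -0.27 to 0.057 in MTOR. For BAQ12 against Lys05 they were -0.34 to 0.18 in RRAGA and -0.18 to 0.14 in MTOR. For BAQ12O against Lys05 they were -0.053 to 0.073 in RRAGA and -0.13 to 0.23 in RRAGC. For BAQ13 against BAQ12 they were -0.16 to 0.20 in TFE3, -0.14 to 0.13 in FLCN, -0.10 to 0.42 in RRAGA and -0.28 to 0.049 in MTOR. For BAQ12O against BAQ12 they were -0.14 to 0.11 in TFE3, -0.18 to 0.34 in RRAGA and -0.30 to 0.078 in RRAGC, and for BAQ12O against BAQ13 -0.22 to 0.11 in TFE3.

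When replicate number entered as a replicate block, calls were 0 for Lys05, 2 for BAQ12, 4 for BAQ13 and 3 for BAQ12O against vehicle, as without it, and the counts between agents were unmoved. The numbers showed no pairing of the libraries: deviations of same-numbered libraries correlated at -0.49 to 0.20, and 4 of 15 libraries correlated best with their own number. Deviations from a mean of 3 libraries sum to 0 in each group, so this check cannot exclude a pairing. Libraries of different numbers correlated at -0.40 to 0.57. The highest value was between BAQ12 replicate 3 and BAQ13 replicate 1, so some libraries of these groups shared their deviations. The cause was not tested.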
